A study of Mus musculus with 2 samples.

Results

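Ly6c2 positive monocytes were taken as the barcodes of a single-cell experiment on mouse brain glioma that carried transcripts of blood monocytes and few of microglia or T cells. A barcode (1 droplet, read as 1 cell) needed at least 1000 UMIs, the molecule tags that count single transcripts, at least 300 genes and at most 15% mitochondrial UMIs. It also needed at least 1 UMI of Ly6c2, at least 3 UMIs summed over Ly6c2, Ccr2, Plac8, F13a1 and Chil3, and at least 2 of Lyz2. At most 1 UMI summed over the microglia genes P2ry12, Tmem119, Siglech, Gpr34 and Fcrls was allowed, and none of Cd3d, Cd3e or Cd3g. These conditions left 211 of 8310 control barcodes and 102 of 4835 LTS barcodes, 313 of 13145 in all. The members were thus chosen by their measured counts of these genes, whose levels are given below only as a description.

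Monocytes with high Ly6C surface protein leave the bone marrow and follow the chemokine CCL2 through its receptor, encoded by Ccr2, into inflamed tissue and tumours. There they lose Ly6C and take on features of macrophages, such as the complement component C1q, or of antigen-presenting cells, such as MHC class II, which shows peptides to CD4 T cells. They respond strongly to interferons, and in gliomas they are known as a source of the macrophages that enter from the blood, beside the resident microglia. Ly6c2 encodes a member of the Ly6 family anchored in the membrane and lies at chr15:75108158-75111970 on the minus strand (mm10). Ly6c1, its neighbour at chr15:75044018-75048830, is a near copy: the aligned transcripts were identical at 97.6% of 822 bases, so reads of the pair can be shared or lost, and values of Ly6c1 are uncertain.

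The study compared Kunming mice, an outbred stock, with orthotopic G422 glioma (a mouse glioma cell line grown in the brain) in 2 groups of 1 library each. Control mice were untreated and their brains were taken on day 7 after inoculation. LTS mice had survived for more than 100 days after a combined therapy, received the same tumour on the other side of the brain and survived again for more than 100 days, and the text for this group also names day 7 after tumour inoculation, without saying which inoculation. In both groups cells came from the interphase of a 70% and 37% Percoll gradient after digestion and filtering at 40 µm, so the shares below are of cells that this enrichment kept. The drugs of the therapy and the number of animals in a library are not given in the sources used here. With 1 library per group no test between groups was possible: every interval is a 95% interval for counting error only and does not include differences between animals or preparations.

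The monocyte barcodes were shallow. Their median was 2912 UMIs and 1420 genes in control and 5094 UMIs and 1978.5 genes in LTS, against 14889.5 and 18779 UMIs over all barcodes within the limits. For shares of cells with a UMI, every barcode was therefore thinned at random to 1000 UMIs, which all 313 members had, and shares before thinning are named as such and not compared between libraries. The libraries held 165796852 and 149413534 UMIs and shared 13 barcodes within the limits, none of them a member in both. Near the thresholds, 26 control and 11 LTS members had a single Ly6c2 UMI, and 8 and 3 had a monocyte sum of exactly 3, while 10 and 3 barcodes that met the other conditions were left out at a sum of 2.

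A small group of barcodes with tumour transcripts stood apart and bears on most results below. A list of 14 genes of the G422 tumour cells, among them Postn, Mgp and Col3a1, had 30 to 204 UMIs in 12 control members and 72 and 85 UMIs in 2 LTS members. All other members had at most 9 in control and 5 in LTS. The 14 barcodes held 10581 to 50334 UMIs in control and 38871 to 43044 in LTS, where the others held at most 9230 and 13605, and they supplied 35% of the control and 13.6% of the LTS members' UMIs. Summed levels of monocyte genes are therefore lowered by tumour RNA, and more so in control. List counts and medians are given for all members and then for the 199 control and 100 LTS members with under 10 tumour-list UMIs, called the tumour-low members here. Levels and ratios of single genes are those of the tumour-low members unless all members are named. Tumour RNA was still unequal between these: they held 1067 CPM (counts scaled to the same total in every group of cells) of the tumour list in control and 306 CPM in LTS.

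**Figure D1:**
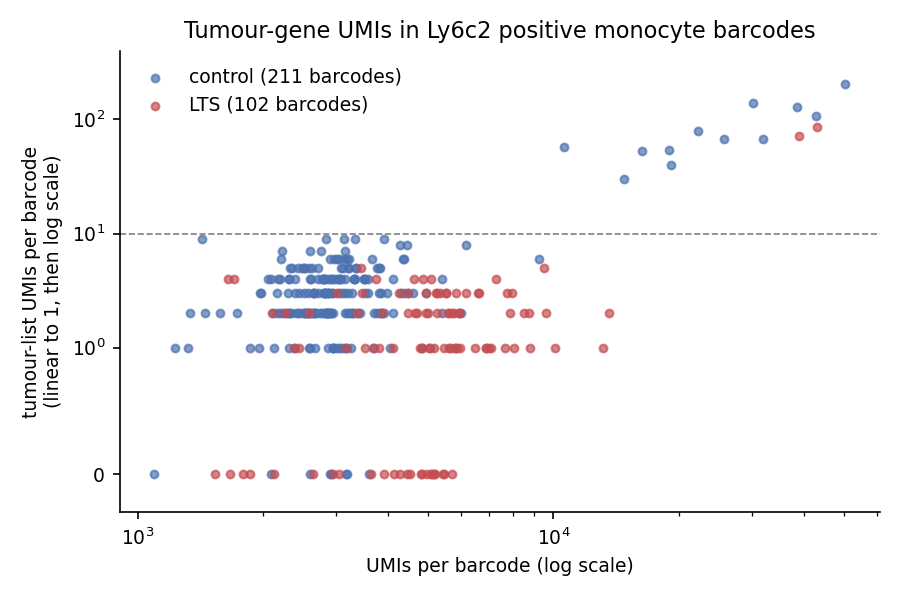
Each point is 1 member barcode, with its UMIs on a log scale (x axis) and its tumour-list UMIs (y axis, linear to 1, then log), control in blue and LTS in red. The dashed line marks 10 tumour-list UMIs: 12 control and 2 LTS barcodes lie above it, at 10581 to 50334 UMIs.

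The genes of the rule were unequally frequent among the members, and since they chose the cells their presence is no check of the name. Before thinning the median member had 6 Ly6c2 UMIs in control and 12.5 in LTS, with a monocyte sum of 17 and 37 and a maximum of 75 and 180. After thinning to 1000 UMIs, Ly6c2 was found in 79.6% of control members (95% interval 73.5 to 84.8) and 77.5% of LTS members (68.1 to 85.1). It was found in 0.463% and 0.418% of tumour-gene cells, a rough guide to free RNA. These are barcodes with at least 3 tumour-list UMIs, few UMIs of the immune genes Ptprc, Tyrobp and Fcer1g, and none of the endothelial genes Pecam1 and Cldn5. They were thus chosen for few immune UMIs. They were also deeper, at medians of 17352 and 36286 UMIs, so after thinning they can understate free RNA in the members. Plac8, a small cysteine-rich protein of myeloid cells, was found in 73.0% and 76.5% of members. Ccr2, the receptor of CCL2, was found in 40.3% and 42.2% of members and in 5.26% and 6.84% of the Ly6c2-negative macrophages. F13a1, a subunit of coagulation factor XIII, was found in only 6.64% and 7.84%. Chil3, a chitinase-like protein of young monocytes, was found in 11.4% and 13.7%.

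Defining markers of several other cell types that the gate could hold were at 0, but no list was absent as a whole in both libraries. The shares and sums in this paragraph are of all members unless tumour-low members are named, and the shares are before thinning. Of the neutrophil list Ly6g was at 0 in both libraries, S100a9 was at 0 in control, and the list summed to 84.9 CPM in control and 106 CPM in LTS. The T and NK cell genes Cd8a, Cd8b1, Ncr1, Klrb1c, Prf1 and Nkg7 were at 0 in both, as were the border macrophage genes Cd163, Lyve1 and Folr2 and the dendritic cell genes Xcr1 and Cd209a. The border macrophage list still summed to 100.1 and 121 CPM, in 28.4% and 37.3% of members, and the conventional dendritic cell list to 22.9 and 41.5 CPM, in 9.48% and 14.7%. The plasmacytoid dendritic cell list summed to 260.1 and 196 CPM (184 and 162 CPM in tumour-low members), in 39.3% and 51.0% of members, with 13 control and 4 LTS members at 5 or more UMIs. Other microglia genes summed to 378 CPM in control and 322 CPM in LTS, and 63.0% and 69.6% of members had at least 1 such UMI. The endothelial list, which includes Ly6c1, summed to 396 and 440.4 CPM, in 65.4% and 79.4% of members, and 1 control member held 63 endothelial UMIs. In tumour-low members this order was reversed, at 553 CPM in control and 502 CPM in LTS. Y-linked transcripts, which the tumour cells nearly lack, stood at 56.6 and 101 CPM in the members and at 1.21 and 1.15 CPM in the tumour-gene cells. Doublets were not called, and the part of such barcodes in the results was tested only by leaving out those with tumour transcripts.

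Compared with the other myeloid cells of the same libraries, the monocytes stood out by interferon-induced genes of the Schlafen family and by genes of circulating monocytes. Of genes with at least 50 CPM in both libraries, 14 of the 15 with the largest levels over the higher of 2 comparison classes (Ly6c2-negative macrophages, Lyz2 myeloid barcodes with at least 3 C1q UMIs, 209 control and 117 LTS cells, and microglia, with at least 3 UMIs of the rule's microglia genes, 1045 and 1028 cells) were Slfn4, Ifit1bl1, Chil1, Ly6i, Slfn1, Ms4a4c, Hp, Gpr141, Thbs1, Mxd1, F10, Slfn5, Il1rn and AW112010. The classes were cut by the rule's own genes, and the macrophages also by C1q, so these differences describe the cells and are no test. Ly6c2-negative Lyz2 myeloid barcodes with fewer C1q UMIs were not compared. Slfn4, a Schlafen gene induced by interferon in myeloid cells, stood at 332 CPM in control and 383 CPM in LTS tumour-low members, against 1.71 and 4.58 CPM in the macrophages and 1.84 and 0.930 CPM in the microglia. CPM of the comparison classes, here and below, are of their cells with under 10 tumour-list UMIs (143 and 87 macrophages, 677 and 669 microglia).

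Hp, the haemoglobin scavenger haptoglobin, stood at 167 CPM in control and 202 CPM in LTS monocytes, and at most at 13.8 CPM in the other cells. Ms4a4c, a tetraspan membrane protein of Ly6C-high monocytes, stood at 1345 and 1435 CPM against 169 and 170 CPM in the macrophages. Thbs1, the matrix protein thrombospondin 1, stood at 219 and 221 CPM against 29 and 11.5 CPM. For Slfn4 and these 3 genes the interval of the ratio of LTS over control includes 1 in tumour-low members, while in all members the ratios were 1.51 (1.24 to 1.84) for Slfn4, 1.51 (1.14 to 2.0) for Hp, 1.41 (1.28 to 1.56) for Ms4a4c and 1.33 (1.03 to 1.72) for Thbs1. The levels in the macrophages were far lower in both libraries. Chil1, a chitinase-like protein, and Ly6i, a relative of Ly6c2, were also found in the LTS macrophages, at 89.4 and 57.3 CPM, beside 494 and 379 CPM in the LTS monocytes.

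**Figure D2:**
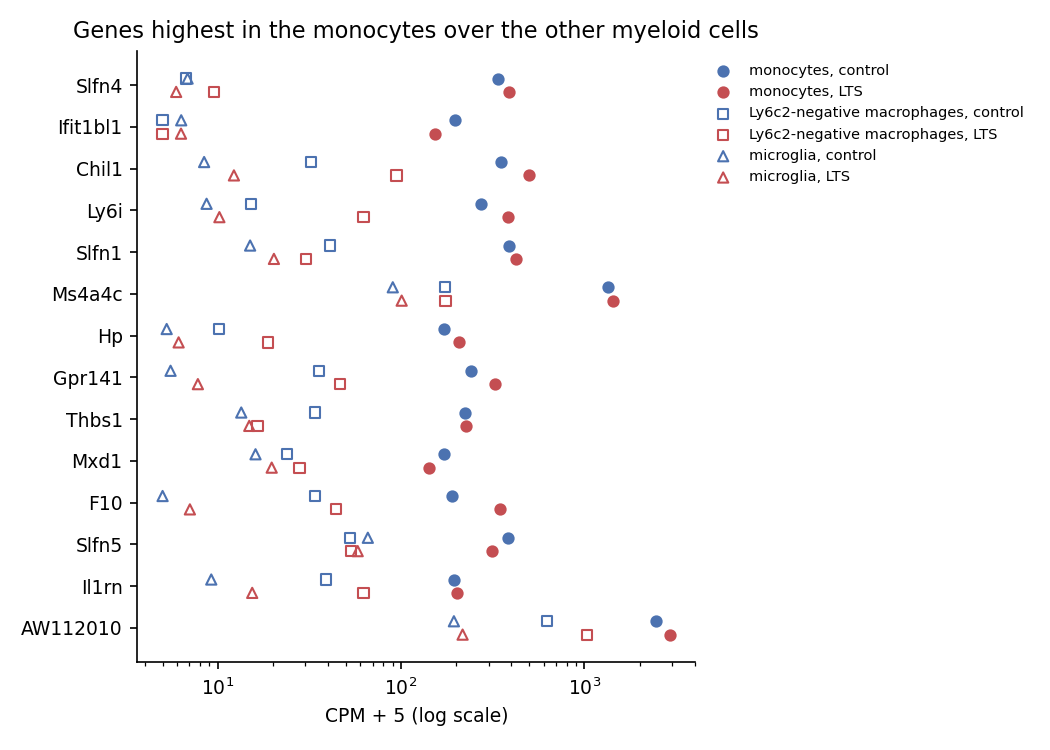
Levels of the 14 genes as CPM + 5 on a log scale (x axis) in tumour-low monocytes (filled circles), Ly6c2-negative macrophages (open squares) and microglia (open triangles) of control (blue) and LTS (red). Slfn4 lies at 332 and 383 CPM in the monocytes and under 5 CPM in the other classes, while AW112010 shows a smaller gap.

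Interferon-response genes, which the rule did not use, were found in nearly every member. Per 1000 UMIs, the 47 listed interferon genes found in the files summed to 0 at the lowest, 12 at the median and 90 at the highest control member, and to 1, 13.5 and 84 in LTS. Over all cells of the comparison classes the medians were 3 and 3 in the macrophages, 4 and 2 in the microglia and 1 and 0 in the tumour-gene cells. The macrophages were chosen for C1q, and among the monocytes interferon sums were lower in cells with C1q, as described below. Irf7, the transcription factor that amplifies type I interferon production, stood at 1030 and 1045 CPM in tumour-low monocytes and at 157 and 151 CPM in the macrophages. Rsad2, which encodes the antiviral enzyme viperin, stood at 541 and 537 CPM against 35.8 and 13.8 CPM. Isg15, a ubiquitin-like modifier, stood at 512 and 469 CPM against 81.9 and 75.6 CPM.

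Promoters of these genes are shown because the genes moved together across cells, as described next, and because the bases that interferon-activated factors and class II factors read are well known. RefSeq promoter windows (build GRCm38.p6, 250 bases before to 50 after the start) were searched on both strands for the core of the interferon-stimulated response element, GAAA followed after any 2 bases by GAAA again, and for GATTGG, the Y box of class II promoters. The interferon element was found in 24 of 37 interferon-list genes that had an entry (64.9%), and in 3.99% of 27025 genes with an entry. GATTGG was found in 7 of 7 class II list genes with an entry, and in 18.2% of all genes with an entry. The lists hold genes known for these responses, so the counts describe the lists. The sequences below are the 250 bases before the start, 5′ to 3′ on the gene's strand, with each match in capitals. Isg15, Rsad2 and Ifit1bl1 show the interferon element, and H2-Aa, H2-Eb1 and H2-DMb1 show the Y box, at 49, 60 and 62 bases before the start.
Isg15, chr4:156200819-156201068, minus strand: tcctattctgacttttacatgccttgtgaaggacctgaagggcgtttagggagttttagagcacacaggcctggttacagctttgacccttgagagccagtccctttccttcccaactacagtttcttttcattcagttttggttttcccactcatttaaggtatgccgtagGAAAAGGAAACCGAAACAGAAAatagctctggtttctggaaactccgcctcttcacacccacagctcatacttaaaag
Rsad2, chr12:26456453-26456702, minus strand: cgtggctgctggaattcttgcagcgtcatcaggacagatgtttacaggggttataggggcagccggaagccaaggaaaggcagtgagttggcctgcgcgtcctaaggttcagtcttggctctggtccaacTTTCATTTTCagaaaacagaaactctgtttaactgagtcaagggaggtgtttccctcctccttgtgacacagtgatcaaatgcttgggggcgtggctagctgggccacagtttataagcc
Ifit1bl1, chr19:34601969-34602218, minus strand: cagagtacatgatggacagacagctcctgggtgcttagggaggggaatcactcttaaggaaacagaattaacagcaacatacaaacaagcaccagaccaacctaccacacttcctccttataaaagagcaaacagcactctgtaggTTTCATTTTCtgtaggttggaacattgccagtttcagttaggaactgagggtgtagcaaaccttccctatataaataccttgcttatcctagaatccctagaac
H2-Aa, chr17:34287824-34288073, minus strand: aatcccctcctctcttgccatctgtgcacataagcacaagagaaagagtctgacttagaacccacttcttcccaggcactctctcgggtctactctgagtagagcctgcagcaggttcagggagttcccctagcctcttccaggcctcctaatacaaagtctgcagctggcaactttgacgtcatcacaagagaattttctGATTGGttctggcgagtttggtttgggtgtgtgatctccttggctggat
H2-Eb1, chr17:34305617-34305866, plus strand: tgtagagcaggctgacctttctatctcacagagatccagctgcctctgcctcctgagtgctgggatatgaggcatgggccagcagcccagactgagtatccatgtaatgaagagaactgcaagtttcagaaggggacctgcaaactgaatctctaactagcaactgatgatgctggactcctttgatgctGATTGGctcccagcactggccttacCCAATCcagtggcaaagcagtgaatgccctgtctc
H2-DMb1, chr17:34152941-34153190, plus strand: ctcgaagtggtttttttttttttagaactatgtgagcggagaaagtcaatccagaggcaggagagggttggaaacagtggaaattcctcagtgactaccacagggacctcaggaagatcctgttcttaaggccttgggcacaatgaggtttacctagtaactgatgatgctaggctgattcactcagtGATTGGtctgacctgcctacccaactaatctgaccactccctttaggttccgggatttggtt
In Isg15 the capitals are 3 overlapping matches that begin 78, 72 and 66 bases before the start. In Rsad2 and Ifit1bl1 the match is on the other strand and reads TTTCATTTTC, and H2-Eb1 has a further Y box match on the other strand, CCAATC.

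Within both libraries the monocytes ranged from cells with many interferon transcripts and little MHC class II to cells with C1q, more MHC class II and fewer interferon transcripts. Tumour-low members were binned by C1qa, C1qb and C1qc UMIs per 1000, and no C1q gene is in the rule. In control 127 members had none, 42 had 1 to 4 and 30 had 5 or more, and in LTS 74, 14 and 12. The median interferon sum was 15, 11.5 and 9 UMIs in these control bins and 17, 5 and 5 in LTS. The summed H2-Aa, H2-Ab1, H2-Eb1 and Cd74 went the other way, with medians of 3, 7.5 and 16 UMIs in control and 2, 22.5 and 24 in LTS. The bins overlapped widely: class II sums reached 60 and 67 in members without C1q, and interferon sums reached 42 and 23 in members with 5 or more C1q UMIs. Cells of 1 library are not replicates, so these are descriptions of 2 libraries, and the bins were set after the data were seen.

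**Figure D3:**
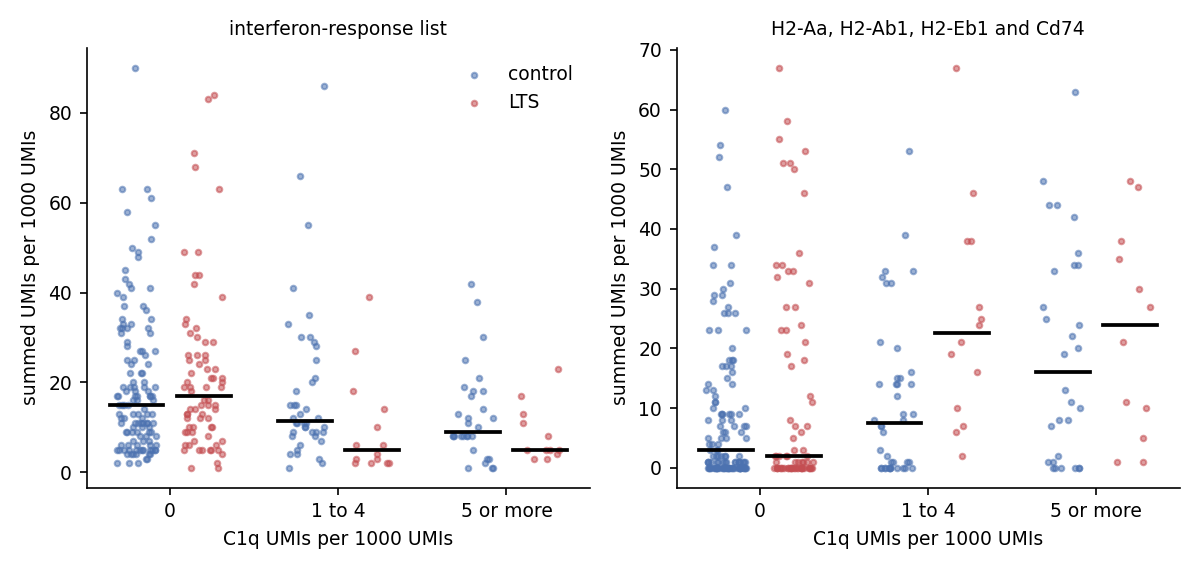
Points are tumour-low members thinned to 1000 UMIs, binned by C1q UMIs (x axis), with summed interferon-list UMIs on the left and summed class II UMIs on the right (y axes). Black lines are medians: interferon medians are 15, 11.5 and 9 in control (blue) and 17, 5 and 5 in LTS (red), and class II medians 3, 7.5 and 16 and 2, 22.5 and 24.

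Most single genes followed the same order. Of 47 interferon genes, 46 were lower in the highest than in the lowest C1q bin in control and 46 in LTS, with median log2 differences of -0.82 and -1.49. Rsad2 went from 584 to 108 CPM in control and from 735 to 16.6 CPM in LTS. Cxcl10, a chemokine that draws T cells through CXCR3, went from 1273 to 245 CPM and from 1090 to 16.6 CPM. Cxcl9, which acts on the same receptor, was different in LTS: 304 CPM in members without C1q and 631 CPM at 5 or more, against 708 and 324 CPM in control. The highest LTS bin held 12 members, so its low values rest on very few UMIs. All 26 tumour-low LTS members with C1q had 8 counts of Rsad2, 12 of Cxcl10 and 102 of Cxcl9. Of the 21 classical monocyte genes 21 were lower in the highest C1q bin in control and 19 in LTS, at median log2 differences of -0.74 and -1.91. Ly6c2 itself, a gene of the rule, went from 3517 to 1963 CPM and from 4808 to 631 CPM. Of 8 class II genes, 6 were higher and 2 lower in the highest C1q bin in control, and 8 were higher in LTS. The median log2 differences were 1.15 and 0.70. H2-Aa, a class II alpha chain, went from 1713 to 4074 CPM in control and from 2850 to 5996 CPM in LTS.

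Binned by the interferon sum itself, 69, 89 and 41 tumour-low control members had under 10, 10 to 29 and 30 or more UMIs per 1000, and 36, 47 and 17 LTS members. The shares at 30 or more were 20.6% (15.2 to 26.9) and 17% (10.2 to 25.8), and no tumour-gene cell reached that sum. All 8 class II genes were lower in the highest than in the lowest of these bins, in both libraries, at median log2 differences of -1.07 and -2.11. MHC class I went the other way: 15 of 19 genes in control and 16 of 19 in LTS were higher, at medians of 0.53 and 0.64. H2-T23 went from 274 to 601 CPM in control and from 447 to 752 CPM in LTS, and Tap1, a subunit of the transporter that feeds peptides to class I, from 128 to 357 CPM and from 175 to 303 CPM. Fabp5 went from 1260 to 375 CPM in control and from 2864 CPM to 0 in LTS. Ccl5 had opposite orders in the libraries, from 358 to 1168 CPM in control and from 1542 to 667 CPM in LTS, where 1 cell held 35.8% of its counts.

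The macrophage genes did not all follow C1q. Apoe, a lipid carrier, went from 15010 to 22670 CPM in control and from 18700 to 37050 CPM in LTS between the lowest and highest C1q bin. Fabp5, a fatty acid binding protein, went from 861 to 668 CPM in control and from 1632 to 448 CPM in LTS, and Gpnmb, a glycoprotein of lipid-laden macrophages, went from 247 to 344 CPM in control and from 550 to 166 CPM in LTS. The low LTS values are those of the highest bin, of 12 members. Over all 26 tumour-low LTS members with C1q, Fabp5 stood at 1510 CPM and Gpnmb at 424 CPM, nearer the values without C1q. Median depth differed little between the bins, at 2842, 2872 and 3233.5 UMIs in control and 5044, 5734.5 and 4644.5 in LTS. Free RNA carried C1q: at least 1 C1q UMI was found in 12.7% of control and 6.23% of LTS tumour-gene cells, and 5 or more in 0.382% and 0.125%. These cells were deeper and chosen for few immune UMIs, so the shares can understate free C1q RNA in the members. At least 1 C1q UMI was found in 35.5% of all control members (29.1 to 42.4) and 26.5% of LTS members (18.2 to 36.1). These intervals overlap, and the lower share stood in the library with less C1q in its tumour-gene cells. The part of free RNA in the difference was not tested. At 5 or more C1q UMIs the shares of tumour-low members were 15.1% (10.4 to 20.8) and 12% (6.36 to 20.02).

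Members with C1q and without class II were found in control only. Of 75 control members with C1q, 19 had no class II UMI after thinning, 9.005% of the 211 members (5.51 to 13.7). In LTS 0 of 27 did, and 0 of 102 members allows a share of up to 2.94% by a limit of 3 counts, or 3.55% by the exact interval. Members without C1q also had no class II UMI in 33.1% of control and 38.7% of LTS cases. Most of the 19 control members had a single C1q UMI, and 1 was a barcode with 128 tumour-list UMIs. At least 1 C1q UMI was also found in 12.7% of control and 6.23% of LTS tumour-gene cells. The part of free RNA was not tested, and neither was the difference, since each group is 1 library.

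The monocytes' share of the libraries depended on what it was taken of. Of all barcodes within the limits they were 2.54% in control (2.21 to 2.90) and 2.11% in LTS (1.72 to 2.56), a ratio of 0.831 (0.594 to 1.16, from the outer ends of both intervals). Of barcodes with a UMI of Ptprc, the pan-leukocyte gene of CD45, they were 149 of 1418 in control, 10.5% (8.96 to 12.2), and 96 of 1554 in LTS, 6.18% (5.03 to 7.49). That ratio was 0.588 (0.412 to 0.836), and 0.378 when the rule was applied after thinning. Of Lyz2 myeloid barcodes (at least 2 Lyz2 UMIs, with the same limits on microglia and T cell genes) they were 37.7% (33.6 to 41.8) and 37.8% (32.0 to 43.9). The share of Ptprc barcodes differed beyond counting error, and the intervals for Lyz2 myeloid barcodes overlapped. Fewer monocytes and more of the other cells in a denominator cannot be told apart, and the deeper barcodes of LTS meet a UMI threshold more easily.

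**Figure D4:**
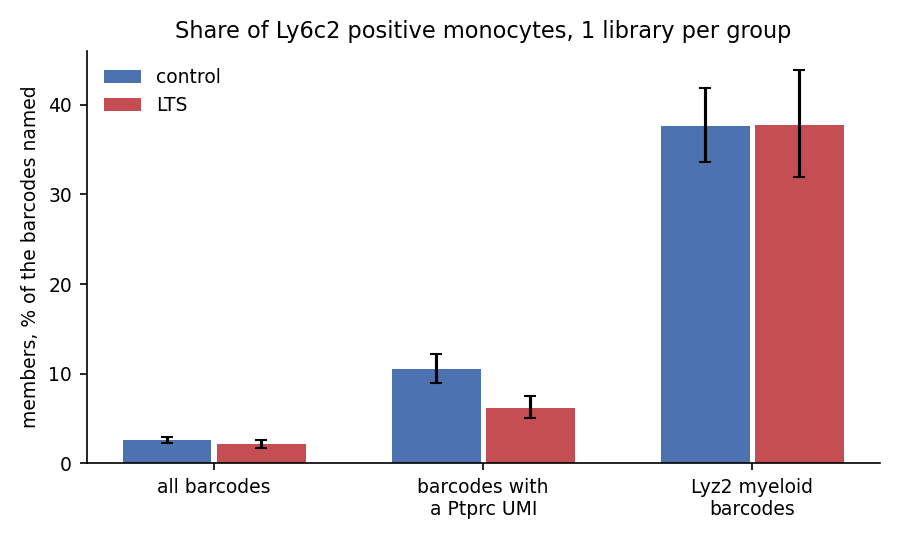
Bars are the percentage of barcodes that were Ly6c2 positive monocytes (y axis, from 0) of all barcodes, of barcodes with a Ptprc UMI and of Lyz2 myeloid barcodes, in control (blue) and LTS (red). Error bars are exact binomial 95% intervals: 10.5% and 6.18% of Ptprc barcodes do not overlap, while 37.7% and 37.8% of Lyz2 myeloid barcodes do.

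For the comparison of LTS with control monocytes, counts were summed over members, scaled to CPM and set against each other as log2 ratios, with 5 CPM added to both. This understates the change of low genes. A gene was measured with at least 20 CPM in either library and was counted as past the fold at 1.5-fold or more. Of 6842 genes measured, 10.6% were past 1.5-fold higher and 22.8% past 1.5-fold lower in LTS. Among tumour-low members the shares were 7.81% and 16.8% of 6547 genes. The median over all genes was -0.12, and -0.07 in tumour-low members. A list of genes is read against these values.

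**Figure D5:**
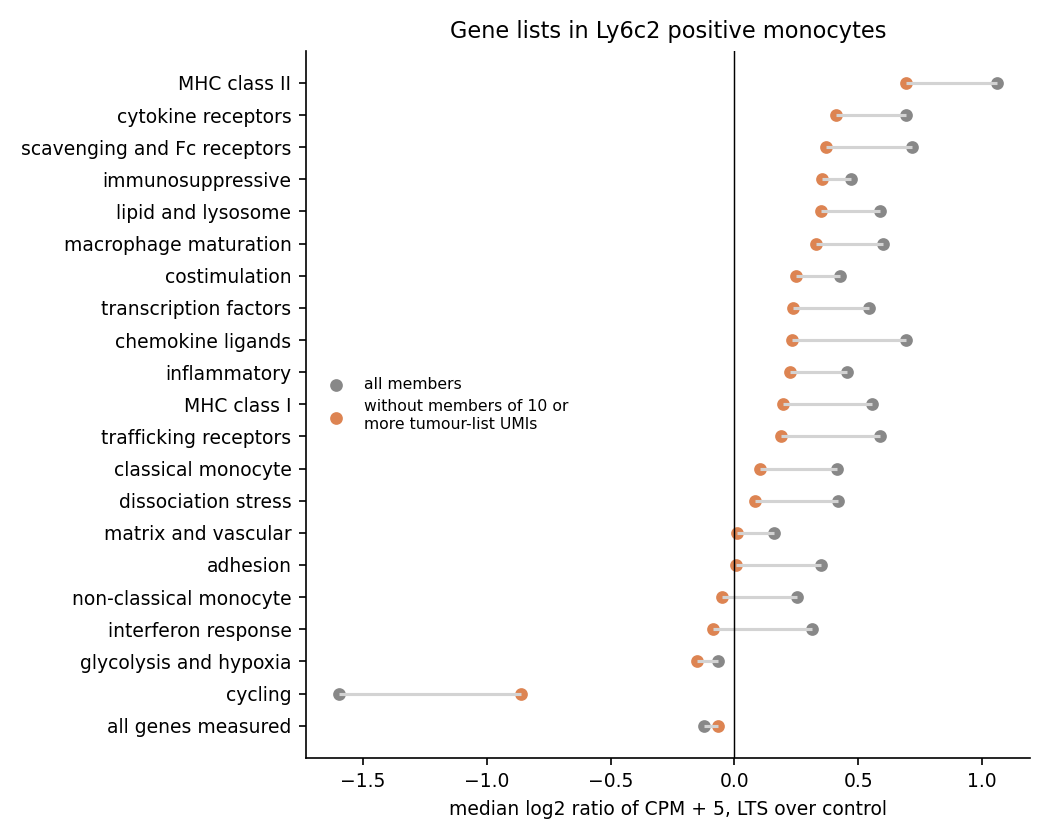
Median log2 ratio of LTS over control (x axis, CPM + 5) of the measured genes of 20 lists and of all genes measured, for all members (grey) and for tumour-low members (orange). MHC class II lies highest at 1.06 and 0.69, cycling genes lowest at -1.60 and -0.86, and the interferon list moves from 0.31 to -0.09.

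MHC class II genes were higher in LTS monocytes. All 8 measured genes of the list were higher and past 1.5-fold, at a median log2 ratio of 1.06, and 6 of 8 were past it in tumour-low members, at a median of 0.69. Taking off free RNA left a median of 0.38, and leaving out members over 0.2% tumour-list UMIs left 0.505, both under 1.5-fold. H2-Aa stood at 1546 CPM in control and 3359 CPM in LTS, or 2267 and 3709 CPM in tumour-low members, a ratio of 1.64 (1.53 to 1.75). H2-Eb1, a class II beta chain, stood at 2026 and 3419 CPM in tumour-low members, a ratio of 1.69 (1.57 to 1.82). Cd74, the invariant chain that guides class II molecules to the lysosome, stood at 5122 and 8130 CPM, a ratio of 1.59 (1.51 to 1.66). Ciita, the master activator of class II transcription, had 24 counts in control and 35 in LTS, a ratio of 1.68 in tumour-low members whose interval (0.969 to 2.94) includes 1. H2-DMa, part of the complex that loads peptides, stood at 368 and 437 CPM, and the interval of its ratio, 0.980 to 1.43, includes 1.

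The share of cells with any class II was close in both libraries. At least 1 class II UMI after thinning was found in 69.7% of control members (63.0 to 75.8) and 71.6% of LTS members (61.8 to 80.1), at medians of 4 and 6.5 UMIs. A sum of 20 or more UMIs per 1000 was found in 44 of 199 tumour-low control members, 22.1% (16.5 to 28.5), and 36 of 100 in LTS, 36.0% (26.6 to 46.2), with intervals that overlap. Other myeloid cells differed the same way: the list's median was 0.69 in the Ly6c2-negative macrophages and 0.92 in the microglia. H2-Aa went from 2376 to 4037 CPM in the macrophages and from 199 to 618 CPM in the microglia. Among tumour-low members no single cell held more than 8.57% of any of H2-Aa, H2-Ab1, H2-Eb1, Cd74 or Ciita in either library.

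The interferon list showed no direction that held. Its median was 0.31 over 47 genes in all members, with 9 past 1.5-fold higher and 1 past it lower, and -0.09 in tumour-low members, with 1 and 1. Irf7, Rsad2 and Slfn4 had tumour-low ratios of 1.01 (0.902 to 1.14), 0.992 (0.842 to 1.17) and 1.15 (0.944 to 1.41). Gbp5, an interferon-gamma induced GTPase that assembles on microbes and inflammasomes, was the exception on the lower side, at 124 CPM in control and 53.9 CPM in LTS tumour-low members, a ratio of 0.435 (0.271 to 0.680). Gbp4, another gene of the list, was at 56.9 and 88.5 CPM, a ratio of 1.55 (0.976 to 2.50). Cxcl10 and Cxcl9 stood at 996 and 796 CPM and at 554 and 412 CPM, with 1 LTS cell holding 21.3% and 1 holding 22.4% of the counts. In the macrophages Cxcl9 was higher in LTS, at 177 and 392 CPM.

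Macrophage maturation genes leaned higher in LTS. Of 22 measured, 11 were past 1.5-fold higher and 1 lower in all members, and 7 and 1 of 23 in tumour-low members, at medians of 0.60 and 0.33. The list's median was 0.28 in the Ly6c2-negative macrophages and 0.22 in the microglia, so the lean was not particular to the monocytes. Fabp5 stood at 784 and 1597 CPM in tumour-low members, a ratio of 2.04 (1.82 to 2.29). After thinning it was found in 16.1% and 23.5% of all members, with intervals that overlap. Its 468 and 830 counts lay in 47 of 199 and 31 of 100 tumour-low cells, with 14.1% and 13.6% in 1 cell. Gpnmb stood at 276 and 514 CPM, a ratio of 1.86 (1.53 to 2.27), and also differed in the macrophages (114 and 250 CPM). Its counts lay in 33 and 27 tumour-low cells, with 7.88% and 15.7% in 1 cell. The intervals of both ratios treat UMIs as independent and do not include this clustering in few cells. Trem2, a lipid receptor of macrophages and microglia, stood at 154 and 266 CPM, a ratio of 1.72 (1.31 to 2.27). Abcg1, a cholesterol exporter, stood at 162 and 277 CPM, a ratio of 1.71 (1.31 to 2.23). C1qa was at 846 and 643 CPM, and Cd81, a tetraspanin, at 100.5 and 53.9 CPM, lower in LTS, with the tumour-gene cells also carrying it (22.2% and 21.9% of thinned cells). Without the top cell of each library the log2 ratios of C1qa, C1qb and C1qc were -0.54, -0.17 and -0.64, all lower in LTS. Lyz2, lysozyme, a gene of the rule, stood at 5756 and 9654 CPM, and at 5619 and 8169 CPM without the cell of each library that held most of it.

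Among chemokines, the CCR2 ligands Ccl7 and Ccl12 were lower in LTS, and Ccl5 was past 1.5-fold higher only with its top cells counted. Ccl5, which draws T cells and monocytes, stood at 616 and 1129 CPM in tumour-low members, but 1 LTS cell held 35.8% of the counts. Without the top cell of each library the values were 511 and 745 CPM, a log2 ratio of 0.54 and no longer past 1.5-fold. Ccl12 had 95 counts in control and 27 counts in LTS, 159 and 51.9 CPM, and was 3.06-fold lower in LTS (1.98 to 4.89). Ccl7 had 17 and 2 counts and was 7.40-fold lower (1.76 to 66.0). Microglia carried far more of both, 1419 and 1490 CPM of Ccl12 and 214 and 231 CPM of Ccl7, with the libraries close. In the macrophages Ccl12 stood at 425 and 316 CPM and Ccl7 at 107 and 34.4 CPM. Ccl2, the main ligand of CCR2, stood at 193 and 277 CPM in the monocytes, with 47.9% of the LTS counts in 1 cell. Of the 12 chemokine ligands measured in tumour-low members, 1 was past 1.5-fold higher (Ccl5) and 3 lower (Ccl7, Ccl12 and Cxcl14). Over all genes measured in these members the shares were 7.81% and 16.8%, so the list is not set apart by these few genes.

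Cxcr4, the receptor of CXCL12 that holds monocytes in the bone marrow and guides them in tissue, had the largest ratio of the genes named by rule. It had 13 counts in control and 54 in LTS, 14.2 and 89.7 CPM, a ratio of 6.34 (3.42 to 12.7), and 4.42 (2.36 to 8.87) in tumour-low members. After thinning it was found in 3.32% (1.34 to 6.72) and 9.80% (4.80 to 17.3) of all members, and these intervals overlap. Before thinning its counts lay in 12 of 199 and 32 of 100 tumour-low cells, which are not compared because the LTS barcodes were deeper. No cell held more than 15.4% of its counts, tumour-gene cells held 0.188 and 0.119 CPM, and in the macrophages the values were 27.3 and 43.6 CPM. Plxnc1, a semaphorin receptor, stood at 28.5 and 57.7 CPM, a ratio of 2.03 (1.08 to 3.92). Selplg, the selectin ligand PSGL-1, stood at 117 and 204 CPM, a ratio of 1.74 (1.27 to 2.39), and at 102 and 103 CPM in the macrophages and 284 and 471 CPM in the microglia. Ltb4r1, the leukotriene B4 receptor, had 25 and 9 counts and was 2.42-fold lower (1.09 to 5.89). Ccr2, which is in the rule, stood at 662 and 695 CPM, and Ccr1, a receptor of CCL5, at 231 and 235 CPM.

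Genes of classical monocytes showed no direction that held as a list. Their median was 0.42 in all members and 0.10 in tumour-low members, where none of 21 was past 1.5-fold higher and 3 were past it lower. The lower ones were S100a6, S100a4 and Vcan. S100a6, a calcium binding protein, stood at 2579 and 1397 CPM, and Vcan, the proteoglycan versican, had 19 and 6 counts. S100a6 was found in 99.1% and 98.5% of thinned tumour-gene cells and at 6990 and 7071 CPM in free RNA, so tumour RNA in the members carries it, and its part in the difference was not tested. Ms4a4c and Thbs1 had tumour-low log2 ratios of 0.09 and 0.01. In tumour-low members without C1q, 16 of 22 classical genes were higher in LTS, at a median of 0.29. In those with C1q, 15 of 20 were lower, at a median of -0.69. Of the non-classical list, of patrolling monocytes, 7 of 15 genes were measured, and none was past 1.5-fold in tumour-low members. Treml4, Spn, Ear2, Cd300e and Adgre4 had at most 9 counts in either library.

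A pair of coagulation genes were higher in LTS, F10 and F7, which encode factor X and factor VII. F10 stood at 184 and 341 CPM in tumour-low members, a ratio of 1.85 (1.45 to 2.37), and at 29 and 39.0 CPM in the macrophages. After thinning it was found in 17.5% (12.7 to 23.4) and 27.5% (19.1 to 37.2) of all members, and these intervals overlap. F7 had 10 and 34 counts, a ratio of 3.91 (1.89 to 8.86), with 29.4% of the LTS counts in 1 cell, and stood at 5.12 and 32.1 CPM in the macrophages. C3, the central complement component, stood at 231 and 458 CPM, a ratio of 1.98 (1.60 to 2.46), and at 106 and 268 CPM in the macrophages. In the LTS monocytes 1 cell held 21.0% of the C3 counts. Without the top cell of each library the values were 224 and 371 CPM, a log2 ratio of 0.72. Spp1, the matrix protein osteopontin, was lower, at 1293 and 500 CPM, 2.58-fold (2.24 to 2.99). It was found in 90.4% and 87.0% of thinned tumour-gene cells and at 2911 and 2923 CPM in free RNA, and the part of that RNA was not tested. Vim, the intermediate filament vimentin, behaved alike, at 2132 and 1070 CPM, with 98.0% and 96.0% of tumour-gene cells carrying it.

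Receptors for cytokines were higher in LTS as a list. Of 15 measured, 9 were past 1.5-fold higher in all members and 6 in tumour-low members, with none lower, at medians of 0.69 and 0.41. Other myeloid cells differed the same way, with a list median of 0.22 in the Ly6c2-negative macrophages and 0.35 in the microglia. Tnfrsf1b, the TNF receptor 2, stood at 102 and 179 CPM, a ratio of 1.75 (1.25 to 2.46), and at 29 and 77.9 CPM in the macrophages. Csf2rb, the shared beta chain of the GM-CSF receptor, stood at 248 and 390 CPM, a ratio of 1.58 (1.27 to 1.96). Ifngr1, a chain of the interferon gamma receptor, stood at 152 and 246 CPM. The transcription factor Cebpa, a driver of the myeloid lineage, stood at 50.2 and 96.2 CPM, a ratio of 1.91 (1.19 to 3.12), while Spi1, Irf8 and Zeb2 had log2 ratios of 0.26, 0.18 and 0.24. MHC class I genes were past 1.5-fold higher in 9 of 19 in all members and in 1 of 19 tumour-low, H2-T23, a non-classical class I gene read by NK cells, at 347 and 571 CPM.

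Genes tied to suppression of T cells leaned higher in LTS, but with free RNA taken off their median was 0.022, against 0.47 in all members. Of 17 measured, 4 were past 1.5-fold higher and none lower in tumour-low members, at a median of 0.35. The list's median was also above 0 in the Ly6c2-negative macrophages (0.28) and the microglia (0.25). Ass1, argininosuccinate synthase, stood at 65.3 and 139 CPM, a ratio of 2.12 (1.42 to 3.22). Arg1, the arginine-degrading enzyme of suppressive myeloid cells, had 41 and 33 counts, in 13 and 7 tumour-low cells before thinning with 24.4% and 36.4% of the counts in 1 cell, at 68.7 and 63.5 CPM, a ratio of 0.925 (0.566 to 1.50). Cd274, which encodes PD-L1, stood at 85.4 and 119 CPM, a ratio of 1.40 (0.949 to 2.06). Nos2 had 5 and 2 counts, and Il10 and Ido1 had none in either library. Il1b, the pro-inflammatory cytokine, stood at 412 and 450 CPM, a ratio of 1.09 (0.910 to 1.31). For costimulation, Cd83, a maturation marker, had 13 and 29 counts, a ratio of 2.56 (1.29 to 5.37), Cd86 stood at 109 and 154 CPM, and Cd80 had 2 and 3 counts.

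Other genes named for the largest ratios were Cd302, B4galnt1, Anxa11, Zmynd15, Slamf6, P2ry14, Amdhd2 and Arrdc4 on the higher side. Cd302, a C-type lectin receptor, stood at 31.8 and 98.1 CPM in tumour-low members, a ratio of 3.08 (1.79 to 5.53). P2ry14, a receptor for UDP-glucose, stood at 48.6 and 96.2 CPM, and Slamf6, a leukocyte receptor that binds itself, at 23.4 and 57.7 CPM. On the lower side were Wdr89, Ino80c, Hist1h1e, Nsmce2, Pmpcb, Gtf2f1, Ube2k, Slu7, Vamp3, Chordc1 and Eif3j1 beside Ccl12. Their level in all control members was 50.1 to 153 CPM, and 45.1 to 141 CPM in the tumour-gene cells, which the naming rule required them to reach. Ube2k, a ubiquitin-conjugating enzyme, stood at 132 and 78.9 CPM in tumour-low members and at 141 and 128 CPM in tumour-gene cells. What part tumour RNA has in these lower values was not tested.

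Cycling genes were lower in LTS. None of 20 was higher in LTS and 18 were past 1.5-fold lower in all members, at a median of -1.60, and 16 of 19 in tumour-low members, at -0.86. At least 2 cycling-list UMIs per 1000 were found in 25.1% of control and 3.92% of LTS members. The same was found in 64.8% and 60.1% of the tumour-gene cells, and the tumour list also differed, with 0 of 9 measured genes higher in tumour-low LTS members and a median of -1.81. Tumour RNA and division of the monocytes were not separated by these values.

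Of the remaining lists, scavenging and lipid and lysosome genes leaned higher in tumour-low LTS members, at medians of 0.37 (13 of 16 higher) and 0.35 (11 of 13 higher), with few genes past 1.5-fold. These medians were 0.29 and 0.27 in the Ly6c2-negative macrophages, and 0.27 and 0.15 in the microglia. Of 16 scavenging and phagocytic receptors measured, none was past 1.5-fold higher and 1 was lower, Cd36, a fatty acid receptor with 14 and 3 counts. Of 13 genes of lipid handling and lysosomes, Abcg1 and Abca1, exporters of cholesterol, were past it higher. Ctsl, the protease cathepsin L, was past it lower at 1040 and 654 CPM, and its level in the tumour-gene cells was 3235 CPM in control. Of 15 adhesion genes 2 were past it higher, Selplg and Pecam1. Of 20 glycolysis genes 5 were higher in any degree and 15 lower, with Pfkl, a phosphofructokinase, at 26.8 and 69.3 CPM and the cytokine Mif at 854 and 469 CPM. Of 17 inflammatory genes 2 were past it higher, Tnfsf13b, which encodes the B cell factor BAFF, with 9 and 17 counts, and Il27 with 7 and 12. Of 16 dissociation stress genes 2 were past it higher and 1 lower. Fosb, an immediate early gene, stood at 60.3 and 123 CPM, and the chaperone Hsp90aa1 at 635 and 337 CPM, with 1323 CPM in control tumour-gene cells.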

How the data were processed

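Single-cell 3' RNA of 2 libraries, 1 control and 1 LTS, was deposited as UMI counts per gene and barcode, not normalized and unfiltered. Per the file headers Cell Ranger 4 wrote them. The submitters' processing notes name mm10, and no source used here gives the annotation release. Members were chosen by the rule in the text, thinned to 1000 UMIs for shares, and summed to CPM for levels. Shares carry exact Clopper-Pearson 95% intervals, CPM and count ratios exact Poisson and conditional ones, and a log2 ratio uses 5 CPM added to each side. Intervals treat UMIs as independent. The ratio and its interval were checked on simulated Poisson counts only. Such counts meet the interval's own assumption, so the check says nothing of UMIs that cluster in few cells.

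Genes were named by rule. The 12 largest and 12 smallest ratios were taken among genes that, in the higher library, reached 50 CPM, 10% of members with a UMI and the level of tumour-gene cells, with no cell over 25% of the counts. To these were added the 2 highest and 2 lowest of each list, the rule's genes and the 15 highest over other myeloid cells. Others in the text (such as H2-Aa, Cxcl9, Arg1, Trem2 and Vim) were named after their values were seen. Of 512 list genes 505 were matched, 8 of them by gene identifier under an older symbol, and the rest are not analysed here. Members and lists were chosen with earlier results of these data known, and the split at 10 tumour-list UMIs and the C1q bins were set after seeing the data. Alternatives covered scaling, pseudocount, CPM minimum, weighing, free RNA and the rule's limits. Promoters are from RefSeq and gene positions from GENCODE M21. No doublet caller was run. Software was python 3.11.15, numpy 2.4.6, scipy 1.17.1, pandas 2.3.3 and matplotlib 3.10.9. A few results are not reported here.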

Additional observations from a re-analysis of the deposited data

How the results depend on the processing

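The MHC class II median was above 0 under every alternative run, from 1.06 in all members down to 0.38 with free RNA taken off and 0.505 without members over 0.2% tumour-list UMIs, both under 1.5-fold. The immunosuppressive median of 0.47 was 0.022 with free RNA off. Genes past 1.5-fold higher, 724 in all members, were 1104 after median-of-ratios scaling, 1099 in members with no C1q UMI and 1278 with no CPM minimum. Genes lower, 1559, were 2650 with no CPM minimum and 605 without members over 0.2% tumour-list UMIs. The interferon median of 0.31 was -0.0018 with cells weighed equally, -0.37 with free RNA taken off, -0.18 without members over 0.2%, 0.57 with no C1q UMI and -0.088 in tumour-low members. The classical monocyte median of 0.42 was 0.54 after scaling, 0.26 weighed equally, -0.097 with free RNA off, -0.034 without members over 0.2%, 0.71 with no C1q UMI and 0.10 in tumour-low members. The macrophage median of 0.60 was 0.30, 0.22, 0.14 and 0.33 with equal weight, free RNA off, without members over 0.2% and in tumour-low members. The Ptprc share ratio of 0.588 was 0.378 when the rule followed thinning. Other medians changed sign: with free RNA off the non-classical (-0.013), class I (-0.022), costimulation (-0.092), trafficking (-0.077), adhesion (-0.17), matrix (-0.19) and transcription factor (-0.058) lists; without members over 0.2% the non-classical (-0.21), costimulation (-0.033), matrix (-0.084) and stress (-0.017) lists; in tumour-low members the non-classical list (-0.050); and glycolysis, to 0.053 after scaling and 0.024 with no C1q UMI. Apart from the fewer members or genes each alternative leaves, the cause was not tested. Of 24 genes named for their ratios, 24 kept their direction under each alternative except free RNA off, where 23 did. They were picked by their ratios in the same counts, which the alternatives largely share, so this is no test of them. In tumour-low members the intervals of the fold by which Ino80c (0.774 to 5.72) and Chordc1 (0.828 to 2.71) were lower in LTS include 1. No paired analysis was possible because each group is 1 library. Depth limits genes of few counts, such as Ccl7, F7 and Arg1.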
